A study of Mus musculus with 12 samples.

Results

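The Schlafen genes are a family of mouse genes that lie side by side on chromosome 11. Members were taken as every non-control probe whose gene name in the scanner files was Slfn1, Slfn2, Slfn3, Slfn4, Slfn5, Slfn8, Slfn9 or Slfn10. This gave 9 probes for 8 genes, of 41174 probes in all, with 2 probes for Slfn3 and 1 for each other gene. All 8 genes passed the filter on dim probes and were tested among 18274 genes. Slfn1 and Slfn2 encode short proteins, Slfn3 and Slfn4 proteins of intermediate length, and Slfn5, Slfn8 and Slfn9 long proteins with a helicase-like C-terminal part. Slfn10, which belongs with the long group by sequence, is listed as a pseudogene (Slfn10-ps) in RefSeq.

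Schlafen proteins share an N-terminal core that can bind RNA, and several members of the family bind or cleave transfer RNA or act on translation. Type I interferons, which include interferon beta (IFN-β), bind a receptor made of Ifnar1 and Ifnar2 on the cell surface. Its signal leads to a complex that includes Stat2 and Irf9 and binds the interferon-stimulated response element (ISRE) of many antiviral genes, and Schlafen genes are among the genes known to be induced in this way. In macrophages and T cells, members of the family have been studied for their links to cell growth, quiescence and activation.

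The arrays, 12 of the single-colour Agilent kind, measured RNA of peritoneal exudate cells, which are the mixed immune cells washed out of the abdominal cavity. The 4 groups of 3 arrays were Ifnar2-/- mice given IFN-β, Ifnar2-/- mice given phosphate-buffered saline (PBS), wild-type mice given IFN-β and wild-type mice given PBS. All mice were females of 8 weeks with the strain given as 129S2/SvPas*BALB/c, and cells were taken 3 hours after the injection into the peritoneal cavity. IFN-β is stated as 10000 IU/ml with no volume, each array came from a different mouse per the design text, and no group received a preparation without active interferon. No cell type is named for the deletion, and RNA was taken from the whole washed-out mixture, so the arrays do not separate cells that sense interferon directly from cells that respond to their neighbours.

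Between 59.4% and 71.6% of spots per array were well above background. The Ifnar2-/- arrays numbered 2 and 3 of both treatments lay alone on slide 3 and had the lowest shares, 59.4% to 62.5%. After PBS, one Ifnar2 probe was lower in Ifnar2-/- cells, with a log2 difference of -1.85 (SE 0.14, adjusted p = 5.47e-05), and the other was higher, with 0.96 (SE 0.18, adjusted p = 0.0149). The labels do not say which part of the gene was deleted, and the PBS arrays of the genotypes lay on different slides. Whether either probe reads the deleted part was not tested. All 9 large peritoneal macrophage markers tested were well above background on all 12 arrays. In a bulk sample such as this one, fewer cells of a type and less RNA per cell cannot be told apart.

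In wild-type cells all 8 Schlafen genes rose 3 hours after IFN-β. Their median log2 fold change over PBS was 4.38, with a range of 2.68 to 6.03, against a median of -0.04 over all genes tested. Of all genes, 17.6% were called higher (39.4% in either direction) at an adjusted p under 0.05 by limma, with Benjamini-Hochberg adjustment over all genes. Counted from the largest fold change, Slfn5 held rank 50 and Slfn2, the lowest of the 8, rank 394, with 2.15% of genes above it. Values are processed signals, a linear brightness with background removed, and signals of different probes are not set against each other.

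Slfn1, which slows the growth of T cells when it is made in excess, had signals of 3080, 2660 and 2980 in wild-type cells after IFN-β, against 205, 202 and 243 after PBS. The groups were far apart, and Slfn1 rose 15.1-fold (log2 3.91, SE 0.14, 95% interval 3.59 to 4.23, adjusted p = 2.07e-08). Its probe lies at chr11:83203729-83203788 on the plus strand in the array's own build, mm7, and the stretch it reads is printed here because Slfn1 is one of the genes that also differed between genotypes after PBS.
Slfn1: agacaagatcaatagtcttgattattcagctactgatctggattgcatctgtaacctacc

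Slfn2, which keeps resting T cells quiescent and shields transfer RNA from cleavage in mice, had signals of 29600, 27500 and 29900 in wild-type cells after IFN-β, against 4820, 5340 and 5060 after PBS. Its probe was bright in every group. Slfn2 rose 6.42-fold (log2 2.68, SE 0.16, 95% interval 2.32 to 3.04, adjusted p = 7.52e-07), the smallest fold change of the 8 genes, and its interval did not reach that of any other member.

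Slfn3, best known in rodents from the differentiation of gut epithelium, was read by 2 probes that differed in brightness and in response. The brighter one, which stands for the gene in the test, had signals of 8060, 9130 and 8190 in wild-type cells after IFN-β, against 235, 353 and 316 after PBS. This was a 31.9-fold rise (log2 4.99, SE 0.23, 95% interval 4.49 to 5.50, adjusted p = 9.06e-08). With the mean of both probes in place of the brighter one, the log2 change of Slfn3 was 3.46, still called. The dimmer probe, which the array design ties to a separate complementary DNA, had 47.8, 54 and 49.3 after IFN-β, against 11.5, 16.3 and 17.2 after PBS. Both probes separated the groups, but tested on its own the dimmer one rose by log2 1.93 (SE 0.25, adjusted p = 0.000165), less than the brighter one. In that test 40% of all probes were called in either direction. The brighter probe lies at chr11:83284834-83284893 and the dimmer one at chr11:83287467-83287526, both on the plus strand in mm7. The sequence of the brighter probe is shown because the values for Slfn3 rest on it.
Slfn3: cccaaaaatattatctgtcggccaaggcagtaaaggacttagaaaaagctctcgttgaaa

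Slfn4, known from myeloid cells and from macrophage activation in mice, had signals of 51200, 61400 and 53200 in wild-type cells after IFN-β, against 1470, 2610 and 1980 after PBS. No spot of it was marked as saturated. Slfn4 rose 31.4-fold (log2 4.97, SE 0.21, 95% interval 4.50 to 5.44, adjusted p = 5.75e-08).

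Slfn5, whose human counterpart has been described as a repressor of transcription at interferon-induced genes, had signals of 16300, 13700 and 16600 in wild-type cells after IFN-β, against 220, 268 and 322 after PBS. It rose 65.3-fold (log2 6.03, SE 0.29, 95% interval 5.39 to 6.67, adjusted p = 1.29e-07). Among the 8 genes this was the largest estimate, though its interval overlapped those of Slfn3 and Slfn4.

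Slfn8, a long Schlafen studied in T cell development, had signals of 4730, 4990 and 5400 in wild-type cells after IFN-β, against 295, 282 and 304 after PBS. Slfn9 had 9700, 8720 and 10100 after IFN-β, against 418, 475 and 540 after PBS. Slfn10 had 35400, 30400 and 37900 after IFN-β, against 1880, 1890 and 2230 after PBS. All 3 genes separated the groups with a wide gap and rose to a like degree. Slfn8 rose 19.2-fold (log2 4.27, SE 0.27, adjusted p = 1.01e-06), Slfn9 22.4-fold (log2 4.49, SE 0.23, adjusted p = 2.3e-07) and Slfn10 19.4-fold (log2 4.28, SE 0.24, adjusted p = 3.93e-07), with intervals that overlapped.

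The readings of these 3 genes may not be independent. The array design lists transcripts of both Slfn8 and Slfn9 for the Slfn9 probe and transcripts of Slfn8, Slfn9 and Slfn10 for the Slfn10 probe, while it lists Slfn8 alone for the Slfn8 probe. How much of the Slfn9 and Slfn10 signals came from each gene was not tested. The probe listed for Slfn8 alone, at chr11:83084956-83085015 on the minus strand in mm7, and the one listed for all 3 genes, at chr11:83110126-83110185 on the minus strand, are printed to show what was read.
Slfn8: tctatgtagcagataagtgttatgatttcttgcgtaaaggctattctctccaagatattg
Slfn10: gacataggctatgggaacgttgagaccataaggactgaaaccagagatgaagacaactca

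**Figure D1:**
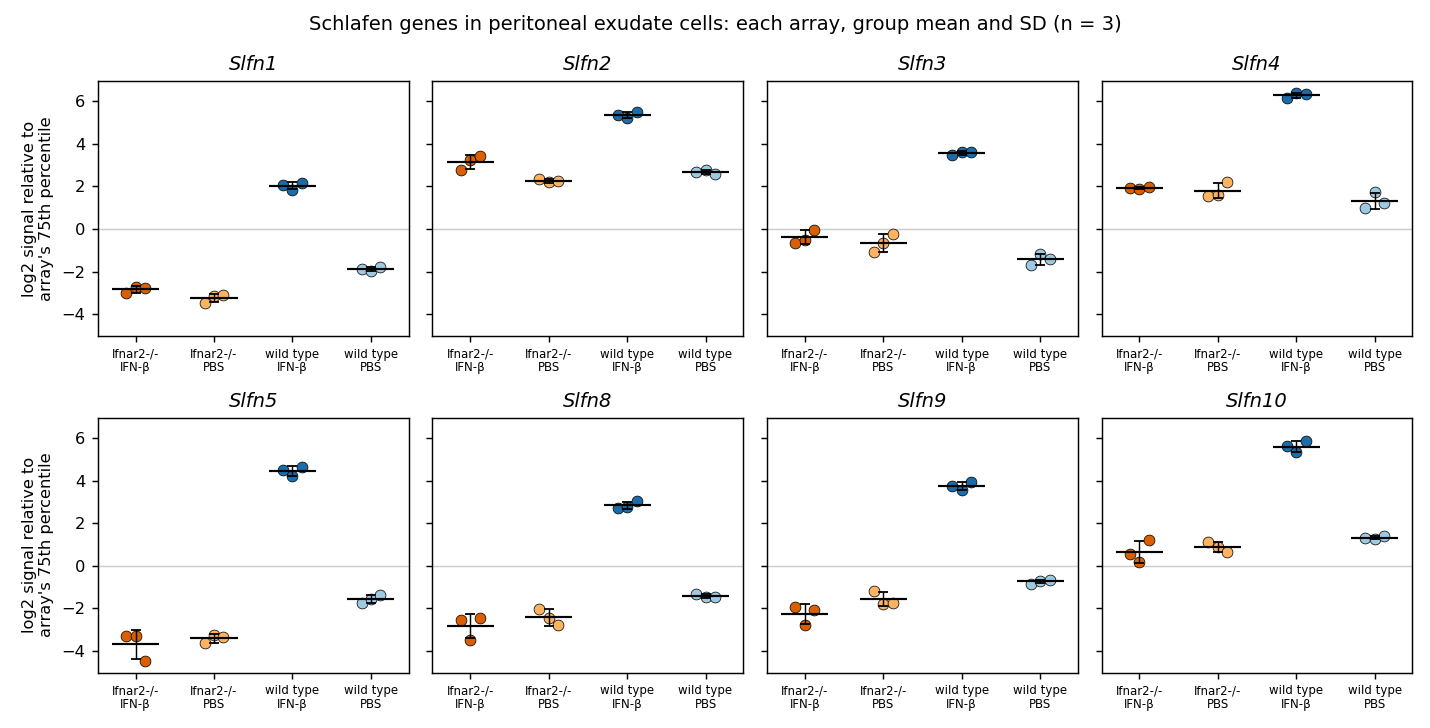
Each panel shows 1 Schlafen gene, with the log2 signal relative to the array's 75th percentile on the vertical axis and the 4 groups on the horizontal axis. Points are arrays, horizontal bars are group means and error bars are 1 SD (n = 3). In every panel the 3 wild-type IFN-β arrays lie above all other arrays.

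Slide and treatment were partly mixed in wild type, since slide 1 held all 3 PBS arrays and 1 IFN-β array, while the other 2 IFN-β arrays lay on slide 2. On slide 1 alone, the difference of the IFN-β array from the PBS mean was 6.07 on the log2 scale for Slfn5, 4.89 for Slfn3, 4.83 for Slfn4, 4.48 for Slfn9, 4.28 for Slfn10, 4.14 for Slfn8, 3.96 for Slfn1 and 2.68 for Slfn2. The gene order by size was close to that from all arrays, with Slfn5 at the top and Slfn2 at the bottom. Monocyte markers moved with the treatment in wild type: their summed level, in units of the array's 75th percentile, was 459 to 502 after IFN-β, against 225 to 253 after PBS. In Ifnar2-/- cells the same sum was 222 to 229 after IFN-β, against 220 to 248 after PBS. In wild type 5 of 8 monocyte markers were called higher, while 6 of 11 T and NK cell markers and 4 of 10 B cell markers were called lower. Among all genes tested, 17.6% were called higher and 39.4% in either direction. The part of these markers in the Schlafen values was not tested.

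In Ifnar2-/- cells, 1 of the 8 Schlafen genes, Slfn2, was called higher after IFN-β and 7 were not called. Over all genes 0.925% were called higher and 1.13% in either direction. The median log2 fold change of the 8 genes was -0.06, with a range of -0.69 to 0.89, against -0.05 over all genes tested.

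Slfn2 had signals of 5800, 9040 and 10500 in Ifnar2-/- cells after IFN-β, against 3910, 4100 and 4280 after PBS. The groups did not overlap, but the spread within the IFN-β group was wide. Slfn2 rose 1.85-fold (log2 0.89, SE 0.16, 95% interval 0.53 to 1.25, adjusted p = 0.0342). Ifnar2-/- arrays of both treatments that shared a slide, same-numbered or not, deviated together. With the replicate number as a block Slfn2 kept 0.89 but was not called (adjusted p = 0.0631). The log2 difference was 0.42 on slide 2, with 1 array per treatment, and 1.12 on slide 3, with 2 arrays per treatment. Without the 4 slide 3 arrays, a choice made after seeing the data that leaves 1 Ifnar2-/- array per treatment, assumed to vary like the others, it was 0.42 with an adjusted p of 0.736. The call was also lost when any 1 of 9 of the 12 arrays was left out, among them Ifnar2-/- PBS 2 (adjusted p = 0.149) and Ifnar2-/- IFN-β 3 (adjusted p = 0.0748).

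Neutrophil markers ran in the same order as Slfn2 over the 3 Ifnar2-/- IFN-β arrays. The summed level of 11 neutrophil markers was 24.5, 84.2 and 202 in the 3 Ifnar2-/- IFN-β arrays, against 14.6 to 20 in the Ifnar2-/- PBS arrays. None of the 11 was called in this comparison, although their median log2 fold change was 1.98. In wild type the sum was 19.7 to 27.4 after IFN-β, against 12.4 to 111 after PBS. Their part in the Slfn2 value was not tested.

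The other short and intermediate members gave small positive estimates in Ifnar2-/- cells that did not pass the test. Slfn1 had signals of 104, 146 and 142 after IFN-β, against 68.9, 99.5 and 108 after PBS (log2 0.40, 95% interval 0.08 to 0.72, adjusted p = 0.186). Slfn3 had 544, 675 and 948 after IFN-β, against 362, 566 and 768 after PBS (log2 0.27, 95% interval -0.24 to 0.77, adjusted p = 0.57). Slfn4 had 3180, 3570 and 3790 after IFN-β, against 2270, 2750 and 4230 after PBS (log2 0.12, 95% interval -0.35 to 0.59, adjusted p = 0.797). For Slfn3 and Slfn4 the groups overlapped, and for Slfn1 they did not once arrays were scaled. The dimmer Slfn3 probe was not well above background on any Ifnar2-/- PBS array and was above it on 2 of the 3 Ifnar2-/- IFN-β arrays. Its signals were 13.4, 29.5 and 27.8 after IFN-β, against 9.57, 15.6 and 17.4 after PBS. Arrays 2 and 3 of both treatments lay on slide 3, where dim probes had a higher limit of detection. There 27.8 was not well above background, while wild-type PBS signals of 11.5 to 17.2 on slide 1 were.

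The long members gave negative estimates, and none passed the test. Slfn5 had signals of 84.9, 97.9 and 43.5 in Ifnar2-/- cells after IFN-β, against 60.7, 94.3 and 89.3 after PBS (log2 -0.28, 95% interval -0.92 to 0.36, adjusted p = 0.649). The third IFN-β array stood below the other 5, and without it the estimate was 0.11. Slfn9 had 224, 138 and 225 after IFN-β, against 330, 261 and 266 after PBS, with no overlap (log2 -0.69, 95% interval -1.20 to -0.17, adjusted p = 0.166). Slfn8 and Slfn10 overlapped between treatments. Slfn8 had 142, 84.6 and 174 after IFN-β, against 188, 164 and 130 after PBS (log2 -0.43, adjusted p = 0.434). Slfn10 had 1220, 1080 and 2240 after IFN-β, against 1640, 1650 and 1440 after PBS (log2 -0.24, adjusted p = 0.629).

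**Figure D2:**
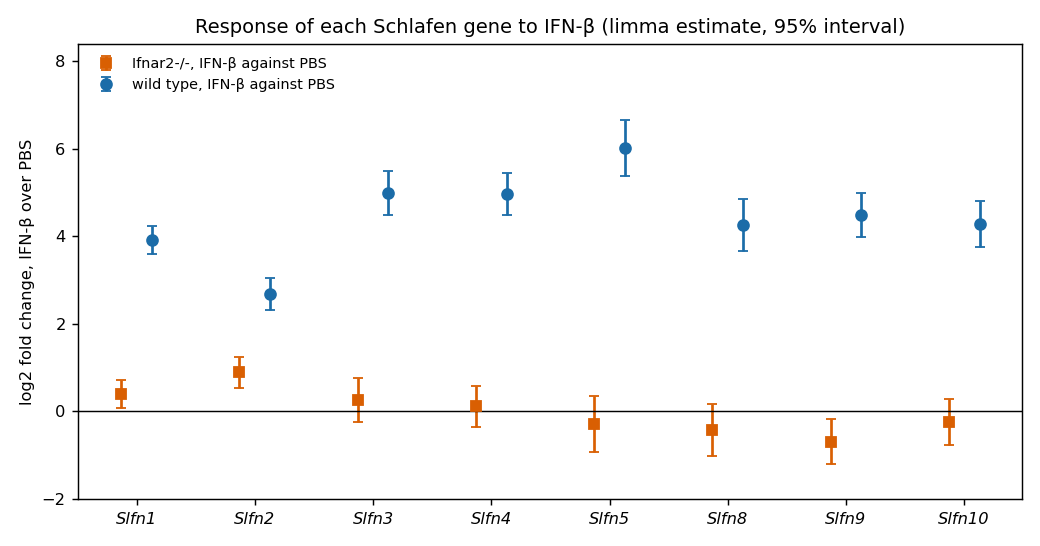
Log2 fold change of IFN-β over PBS for each Schlafen gene, with the limma 95% interval, in Ifnar2-/- cells (squares) and wild-type cells (circles). Wild-type estimates run from 2.68 for Slfn2 to 6.03 for Slfn5, and Ifnar2-/- estimates from -0.69 for Slfn9 to 0.89 for Slfn2.

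The responses were then compared directly, as the interaction of genotype and treatment. All 8 genes responded less in Ifnar2-/- than in wild-type cells, where 9.09% of all genes had a lower response in Ifnar2-/- and 17.8% differed in either direction. The median difference of responses was -4.71 on the log2 scale, against 0.03 over all genes. Slfn5 differed by -6.31 (SE 0.41, adjusted p = 3.17e-06), from responses of -0.28 in Ifnar2-/- and 6.03 in wild type. Slfn2 differed least, by -1.80 (SE 0.23, adjusted p = 0.000404), from responses of 0.89 in Ifnar2-/- and 2.68 in wild type. The dimmer Slfn3 probe has only a bound in Ifnar2-/- cells after PBS, so no difference of responses is given for it.

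After IFN-β, all 8 genes were called lower in Ifnar2-/- than in wild-type cells, where 17.2% of all genes were called lower and 38.5% in either direction. The groups did not overlap for these 8, and how many of all genes showed this was not counted. The median log2 fold change of the 8 genes was -4.91, against 0.08 over all genes. Slfn5 was 283-fold lower (log2 -8.15, SE 0.29, adjusted p = 1.24e-08), Slfn9 64.7-fold lower and Slfn8 51.2-fold lower. Slfn10 was 31.1-fold lower, Slfn1 29.2-fold, Slfn4 20.5-fold, Slfn3 15.6-fold and Slfn2 4.61-fold. The Slfn3 value is that of the brighter probe. Tested on its own by limma, the dimmer Slfn3 probe was 2.94-fold lower (log2 -1.56, SE 0.25, adjusted p = 0.000724). On slide 2, which held 1 Ifnar2-/- and 2 wild-type IFN-β arrays, the log2 difference was -7.75 for Slfn5 and -2.58 for Slfn2, and the other 6 genes lay between these. Marker genes of other cells differed in this comparison too. In Ifnar2-/-, 7 of 11 T and NK cell markers were called higher and 0 lower. Of 8 dendritic cell markers 5 were higher and 1 lower, and of 10 B cell markers 4 were higher and 1 lower. Of 8 monocyte markers 5 were called lower and 1 higher. The part of all these markers in the Schlafen values was not tested. This comparison uses the same wild-type IFN-β arrays as the wild-type response, so both read the same high group.

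After PBS alone, 2 of the 8 genes were called lower in Ifnar2-/- cells, Slfn1 and Slfn5, and 6 were not called. Over all genes 2.04% were called lower and 4.88% in either direction. Slfn5 had signals of 60.7, 94.3 and 89.3 in Ifnar2-/- cells, against 220, 268 and 322 in wild-type cells, and was 3.58-fold lower (log2 -1.84, SE 0.29, 95% interval -2.48 to -1.20, adjusted p = 0.0045). Slfn1 had 68.9, 99.5 and 108 in Ifnar2-/- cells, against 205, 202 and 243 in wild-type cells, and was 2.56-fold lower (log2 -1.36, SE 0.14, 95% interval -1.68 to -1.04, adjusted p = 0.000425). For both genes every Ifnar2-/- array lay below every wild-type array. The same held for Slfn2, Slfn8, Slfn9 and Slfn10, which were not called, and how many of all genes showed this was not counted. Cell markers were called in this comparison too: of 8 dendritic cell markers 2 were higher and 1 lower in Ifnar2-/-. Of 11 neutrophil markers 2 were lower, while 1 of 8 monocyte and 1 of 9 macrophage markers were higher. No T and NK or B cell marker was called. The part of these markers in the Schlafen values was not tested.

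No slide held PBS arrays of both genotypes, since the wild-type ones were all on slide 1 and the Ifnar2-/- ones on slides 2 and 3. With slide as a fixed block, only the wild-type IFN-β arrays link slide 1 to the other slides. In that fit Slfn1 had -1.49 (adjusted p = 0.0599) and Slfn5 -1.71 (adjusted p = 0.664), and neither was called. Without the slide 3 arrays both were called, Slfn1 with -1.59 (adjusted p = 0.0194) and Slfn5 with -2.08 (adjusted p = 0.0182). That comparison sets 1 Ifnar2-/- PBS array on slide 2, assumed to vary like the others, against 3 wild-type PBS arrays on slide 1. In all of these PBS comparisons, slide and genotype cannot be told apart within the PBS arrays alone.

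Among the other members, Slfn8, Slfn9, Slfn2 and Slfn10 had negative estimates in Ifnar2-/- against wild-type cells after PBS. These were -0.99 for Slfn8 (adjusted p = 0.0698), -0.84 for Slfn9 (adjusted p = 0.0709), -0.41 for Slfn2 (adjusted p = 0.194) and -0.44 for Slfn10 (adjusted p = 0.325). Slfn3 and Slfn4 had positive estimates, 0.76 for Slfn3 (adjusted p = 0.0958) and 0.50 for Slfn4 (adjusted p = 0.223). The scaled levels of the groups did not overlap for any member but Slfn4. These groups lay on different slides, and how many of all genes showed no overlap was not counted. Slfn8 and Slfn9 passed the test when Ifnar2-/- PBS 1 was left out (adjusted p = 0.0387 for Slfn8 and 0.0349 for Slfn9) and when Ifnar2-/- IFN-β 2 was left out (0.0199 for Slfn8 and 0.0282 for Slfn9). Slfn3 passed as higher without Ifnar2-/- PBS 1, with 0.97 and an adjusted p of 0.0343. None of these 3 passed without the slide 3 arrays, where Slfn3 had 0.34 (adjusted p = 0.799), Slfn8 -0.58 (0.351) and Slfn9 -0.47 (0.544). With slide as a fixed block the estimates were 0.27 for Slfn3, -0.84 for Slfn8 and -0.49 for Slfn9, each with an adjusted p of 1. The dimmer Slfn3 probe gave no readable difference here, since no Ifnar2-/- PBS array had it well above background.

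**Figure D3:**
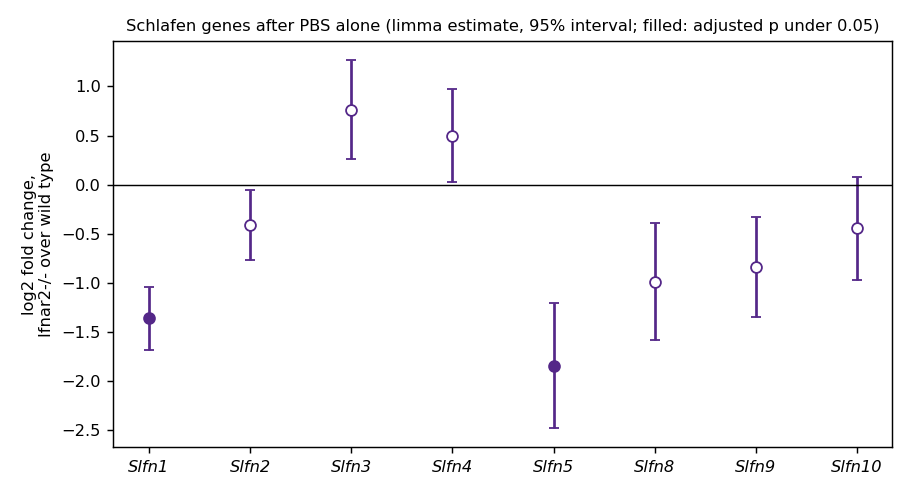
Log2 fold change of Ifnar2-/- over wild-type cells after PBS for each Schlafen gene, with the limma 95% interval. Filled points, Slfn1 at -1.36 and Slfn5 at -1.84, passed an adjusted p of 0.05 and open points did not.

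The order of the 4 groups was not the same in each gene. In Slfn1, Slfn5, Slfn8, Slfn9 and Slfn10 the wild-type IFN-β level was followed by wild-type PBS and then by both Ifnar2-/- groups. The step between wild-type PBS and Ifnar2-/- PBS passed the test in Slfn1 and Slfn5, and the step between the Ifnar2-/- groups in none of these 5. In Slfn2 the Ifnar2-/- IFN-β mean came second, at 3.15 ± 0.34 on the scaled log2 axis, against 2.67 ± 0.10 for wild-type PBS and 2.27 ± 0.08 for Ifnar2-/- PBS (SD, n = 3 each). In Slfn3 and Slfn4 both Ifnar2-/- means lay above the wild-type PBS mean. For Slfn4 these were 1.93 ± 0.04 in Ifnar2-/- after IFN-β and 1.80 ± 0.36 in Ifnar2-/- after PBS, against 1.31 ± 0.39 in wild type after PBS (SD, n = 3 each).

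Pearson correlations of scaled levels over the 12 arrays, given as a description of arrays that share the same 4 groups, ran from 0.888 for Slfn3 with Slfn5 to 0.997 for Slfn8 with Slfn9. Slfn3 and Slfn4 gave 0.994 with each other. Among all genes tested, the genes most like Slfn1 were Gbp2b (0.997), Gbp2 (0.997) and Irgm2 (0.995), all GTPases induced by interferons. The genes most like Slfn5 were the probe named AK138790 (0.997), Ifit1 (0.997) and Ifit3 (0.996), the last pair being RNA-binding antiviral proteins. Slfn8 was most like Slfn9 (0.997), the antiviral GTPase Mx1 (0.994) and Slfn10 (0.991), and Slfn9 was most like Slfn8 (0.997), Mx1 (0.993) and Parp11 (0.993).

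Slfn4 was most like Mlkl (0.996), the pseudokinase of necroptosis, Frmd4a (0.995) and Stard3 (0.994). Slfn3 was most like Mdk (0.994), which encodes the growth factor midkine, Slfn4 (0.994) and Plekhh1 (0.993). Slfn2 was most like Abtb2 (0.993), Piga (0.993), an enzyme of lipid anchor synthesis, and an array entry named NAP123224-1 (0.991). Slfn10 was most like the entries LOC381508 (0.996) and TC1453818 (0.995) and the histone methyltransferase Nsd3 (0.995).

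The 9 member probes spanned 244 kb of chromosome 11, chr11:83043722-83287526 in mm7, in the order Slfn5, Slfn9, Slfn8, Slfn10, Slfn2, Slfn1, Slfn4, Slfn3. The span held 2 probes of other names. One, AK138790, lay between the Slfn5 and Slfn9 probes at chr11:83046265-83046324, and its signals were 92600, 89500 and 90500 in wild-type cells after IFN-β, against 2410, 3190 and 3630 after PBS. In Ifnar2-/- cells it had 1090, 1390 and 433 after IFN-β, against 757, 1200 and 1460 after PBS. In the test over probes it rose by log2 5.07 in wild type (SE 0.38, adjusted p = 2.93e-06). After PBS it was lower in Ifnar2-/- than in wild-type cells, by -1.57 (SE 0.38, adjusted p = 0.0424), where 4.53% of all probes were called. The third Ifnar2-/- IFN-β array was the lowest of its group for AK138790, as it was for Slfn5. Whether this probe reads a transcript of Slfn5 was not tested.

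Of 15 genes beside the cluster, 13 had a probe that was tested, and their median log2 fold change in wild type was 0.21. The 6 called higher were Unc45b (5.05), Ap2b1 (1.00), Cct6b (0.74), Nle1 (0.62), Lig3 (0.60) and Taf15 (0.59), while Rad51d (-0.94) was called lower and 6 were not called. Among all genes tested, 17.6% were called higher and 39.4% in either direction. Unc45b, a chaperone of muscle myosin whose probe lay 19.2 kb before that of Slfn5, had signals of 358, 288 and 481 in wild-type cells after IFN-β, against 11.4, 12 and 14 after PBS (SE 0.68, adjusted p = 0.000206). In Ifnar2-/- cells Unc45b had 9.16, 5.13 and 9.28 after IFN-β, none well above background, against 5.82, 4.46 and 43.8 after PBS. Beyond Unc45b, the neighbours changed by at most 1.00 on the log2 scale in wild type. No tested probe was named for Slfn14, and the related gene Slfnl1, on another chromosome, was well above background on 1 of 12 arrays and was not tested.

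**Figure D4:**
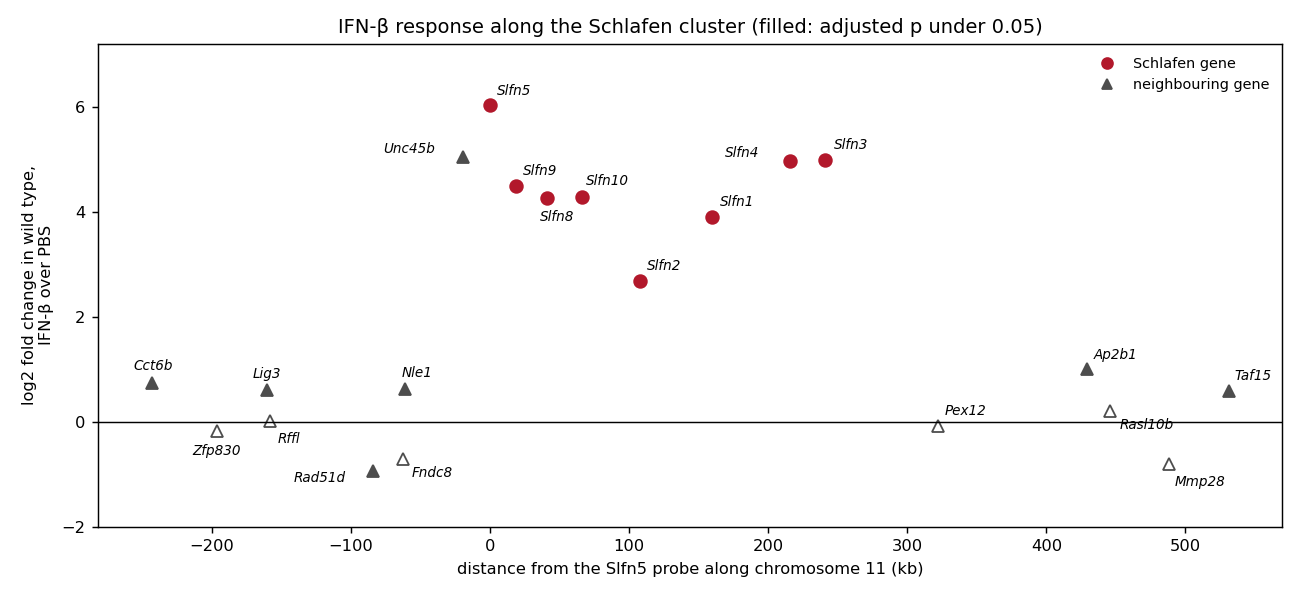
Log2 fold change of IFN-β over PBS in wild-type cells against the distance of each probe from the Slfn5 probe along chromosome 11, in kb. Circles are Schlafen genes, triangles are neighbouring genes, and filled symbols passed an adjusted p of 0.05. All Schlafen genes and Unc45b, at 5.05, lie above the other neighbours, which lie between -0.94 and 1.00.

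Promoter windows from RefSeq on GRCm38.p6, 250 bases before to 50 after each start, were found for 7 members, 8 windows in all because Slfn8 has 2 starts, and none was found for Slfn10. They were searched on both strands for the ISRE core GAAANNGAAA and for TTCNNNGAA, the core of the gamma-activated site. The ISRE core was present in windows of 3 members, Slfn5, Slfn8 and Slfn9, and in 3.44% of 32851 promoters of all genes. It began 155 bases before the start of Slfn5, 48 or 136 before the 2 starts of Slfn8 and 45 before that of Slfn9. TTCNNNGAA was in none of the member windows and in 8.3% of all promoters. The windows of Slfn8 and Slfn9 were 80.8% identical over 312 aligned positions, while all other pairs of members had 46.5% to 53%. These are matches of letters only, and the arrays measured no binding.

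For each of these genes 1 window with the ISRE core is printed, 5′ to 3′ on the strand of the gene, with the match in capitals; the other Slfn8 window holds the same match and is left out. They are chr11:82951852-82952151 (plus strand) for Slfn5, chr11:83020761-83021060 (minus strand) for Slfn8 and chr11:82991781-82992080 (minus strand) for Slfn9. In Slfn8 and Slfn9 the match reads in the reverse direction and has the same 10 letters, TTTCGTTTTC.
Slfn5: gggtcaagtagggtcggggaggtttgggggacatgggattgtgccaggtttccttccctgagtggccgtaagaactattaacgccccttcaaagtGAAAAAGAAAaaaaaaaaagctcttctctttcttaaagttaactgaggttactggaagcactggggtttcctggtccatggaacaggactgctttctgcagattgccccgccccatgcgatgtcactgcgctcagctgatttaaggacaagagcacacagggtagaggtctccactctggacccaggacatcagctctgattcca
Slfn8: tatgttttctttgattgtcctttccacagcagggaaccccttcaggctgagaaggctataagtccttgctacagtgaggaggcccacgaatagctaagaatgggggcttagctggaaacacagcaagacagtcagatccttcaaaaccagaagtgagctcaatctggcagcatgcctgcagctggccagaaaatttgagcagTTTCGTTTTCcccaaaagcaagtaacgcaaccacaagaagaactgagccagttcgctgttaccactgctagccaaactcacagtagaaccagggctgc
Slfn9: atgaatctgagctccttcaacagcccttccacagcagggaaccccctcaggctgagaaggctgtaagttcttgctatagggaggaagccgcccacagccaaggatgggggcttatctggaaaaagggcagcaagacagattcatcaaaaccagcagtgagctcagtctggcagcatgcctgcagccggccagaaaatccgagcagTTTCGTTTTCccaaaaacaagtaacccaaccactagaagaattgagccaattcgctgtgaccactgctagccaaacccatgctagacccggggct

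The wider pathway was described with lists of other genes. All 22 interferon-induced regulators of RNA and translation rose in wild type. Their median was 4.27 on the log2 scale, close to the 4.38 of the Schlafen genes. The largest were Ifit3 (10.11), Ifit1 (10.10) and Ifit2 (9.81). Genes were put on this list as interferon-induced, with earlier results of these data known, so their rise was not a separate test. Shares over all genes tested were 17.6% called higher in wild type, 0.925% called higher in Ifnar2-/- cells and 2.04% called lower after PBS. In Ifnar2-/- cells 1 of the 22, Oasl1, was called higher, by 1.79 (SE 0.19, adjusted p = 0.00221), with a median of -0.32 over the list, and after PBS 8 of the 22 were lower in Ifnar2-/- than in wild-type cells. All 7 interferon transcription factors rose in wild type, by a median of 2.69, led by Irf7 (6.47) and Stat2 (3.58), and 0 of 7 were called in Ifnar2-/- cells. Irf7 was also lower in Ifnar2-/- than in wild-type cells after PBS, by -1.53 (SE 0.22, adjusted p = 0.0026).

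Of 15 translation and transfer RNA genes, the processes on which Schlafen proteins are known to act, 6 were called higher, 3 lower and 6 neither way in wild type, with a median of 0.33. Over all genes 17.6% were called higher and 39.4% in either direction. Wars, which encodes the tryptophan transfer RNA synthetase, was the largest of the 15 at 2.46 (SE 0.17, adjusted p = 1.65e-06). Eif2s1 had 1.06 and Eif4e, the cap-binding factor, 0.95. The response of Wars was smaller in Ifnar2-/- by -2.22 (SE 0.23, adjusted p = 0.000108), while Eif2s1 was called higher in Ifnar2-/- cells as well, by 0.77 (SE 0.15, adjusted p = 0.0436).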

How the data were processed

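RNA from peritoneal exudate cells was hybridised to single-colour Agilent arrays, 3 per group in 4 groups. Per the file headers and the submitters' processing notes, Agilent Feature Extraction 9.5.3.1 made the deposited processed signal, an intensity on a linear scale with background subtracted and no scaling between arrays; the authors' series table held the same values (0 differed). Members were found by the gene name in the files; other probes were named through RefSeq for GRCm38.p6, 8455 kept the name in the files, and probe positions are those of the files, in build mm7.

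Outlier spots were left out, spots of a probe averaged, and log2 signals taken relative to each array's 75th percentile (659 to 968). A probe stayed in if every array of 1 or more groups had it well above background and 6 or more arrays gave it a value (27715 probes). The probe of highest mean signal stood for each gene (18274 genes). All 12 arrays were fitted with limma 3.58.1 in R 4.3.3, with Benjamini-Hochberg adjustment over all genes and a threshold of 0.05, two-sided, and the procedure was tested on simulated data. The number of arrays limits the precision.

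The members and gene lists were chosen with earlier results of these data known. The text names all members, the 3 most correlated genes of each, the 3 largest of each list passing in wild type (1 is not reported here), and the neighbours on chromosome 11; AK138790, Oasl1 and marker lists were added beside results they touch. Neutrophil, monocyte, macrophage, T and NK, B and dendritic cell markers were measured. In wild type 1 of 8 dendritic markers was higher and 3 lower, while of 9 macrophage markers 2 were higher and 2 lower. In that comparison 39.4% of all genes were called in either direction. Alternatives were normexp background correction (offset 50), quantile or no scaling, the mean of a gene's probes, every probe tested, no or a stricter filter, slide or replicate number as blocks, only the groups compared, and leaving out each array or, chosen after seeing the data, the slide 3 arrays. Of the pairs of groups compared, same-numbered arrays deviated together for every number only between the Ifnar2-/- groups. Their deviations from the group means correlated by 0.513, 0.187 and 0.104, and these arrays also shared slides. Different-numbered Ifnar2-/- arrays on slide 3 correlated as well, by 0.223 (PBS 2 with IFN-β 3) and 0.119 (PBS 3 with IFN-β 2). Pairing by number was thus not seen apart from the shared slides, and its use as a block comes from the data.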

Additional observations from a re-analysis of the deposited data

Results flagged for a closer look

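For all 8 Schlafen genes the response to IFN-β differed between the genotypes by a test of the difference itself. The test was the limma interaction of genotype and treatment, adjusted over all genes. By it 9.09% of all genes had a lower response in Ifnar2-/- and 17.8% differed in either direction. The difference, Ifnar2-/- minus wild type on the log2 scale, was -3.51 for Slfn1 (SE 0.20, adjusted p = 1.62e-06) and -1.80 for Slfn2 (SE 0.23, adjusted p = 0.000404). It was -4.73 for Slfn3 (SE 0.32, adjusted p = 4.77e-06) and -4.85 for Slfn4 (SE 0.30, adjusted p = 2.42e-06). Among the long members it was -6.31 for Slfn5 (SE 0.41, adjusted p = 3.17e-06), -4.69 for Slfn8 (SE 0.38, adjusted p = 1.72e-05), -5.17 for Slfn9 (SE 0.33, adjusted p = 2.71e-06) and -4.52 for Slfn10 (SE 0.34, adjusted p = 8.61e-06). In each gene all 3 wild-type IFN-β arrays lay above all 3 wild-type PBS arrays, and how many of all genes showed this was not counted. The Slfn9 and Slfn10 probes also list transcripts of other members, so the Slfn8, Slfn9 and Slfn10 values may not be independent.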

How the results depend on the processing

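In wild type, 8 Schlafen genes were called higher under all 24 alternatives. In the difference of responses (23 alternatives) and after IFN-β (24), 8 were called lower throughout. In Ifnar2-/- cells the count called higher was 1, Slfn2. It was 0 with no filter on dim probes (adjusted p = 0.0966), with slide as a fixed block (0.0597), with only the groups compared (0.248), without the slide 3 arrays (0.736), and 0 to 1 leaving out single arrays. The Ifnar2-/- estimate of Slfn5, -0.28, ran from -0.48 to 0.11 leaving out single arrays, positive without Ifnar2-/- IFN-β 3, and was 0.33 without the slide 3 arrays. After PBS, the count lower in Ifnar2-/-, 2, was 0 with slide as a fixed block and 2 to 4 leaving out single arrays, and the count higher was 0 to 1. The cause of these changes was not tested.

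Same-numbered arrays correlated above 0.1 in 5 of 18 pairs over all groups (-0.122 to 0.513), 3 of them the Ifnar2-/- pairs, and 5 of 12 arrays correlated best with their own number. With the replicate block, 0 genes were higher in Ifnar2-/- cells after IFN-β (Slfn2, adjusted p = 0.0631), and after PBS, where the numbers did not pair the arrays, 3 were lower and 1 higher (Slfn3, 0.76, adjusted p = 0.0381). It changed no other count of members called.

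Counts of genes called were 7205 in the wild-type response (4427 with slide as a fixed block), 207 in Ifnar2-/- (13 with only the groups compared, 337 with normexp), 3247 in the difference (1290 without slide 3), 892 after PBS (31 with the slide block, 433 without wild-type PBS 1) and 7027 after IFN-β (4142 without slide 3). Tested by probe, 11086, 4913 and 10769 probes of 27715 were called in the wild-type response, the difference and after IFN-β, a change of unit. Dim probes had a higher limit of detection on slide 3.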
